A study of Mus musculus with 6 samples.

Results

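Imprinted growth genes are genes read mainly from a single parental copy that act on growth before and after birth. The 10 described here were taken by name from the 45320 genes in the tables, with earlier results of these data known. They are the non-coding RNAs H19 and Meg3, the ligands Igf2 and Dlk1, the adaptor Grb10, the growth-limiting genes Cdkn1c, Plagl1 and Ndn, and Peg3 and Mest. All 10 were found under a single identifier, and all 10 passed the filter on low values, which asked for 1 FPKM or more on average (FPKM is the number of fragments mapped to a gene, scaled to its length and to the size of the library). RNA-seq was done on whole brown adipose tissue of C57BL/6 mice, put on a diet rich in fat and sugar at an age of 4 weeks and split into groups after 4 weeks on it. The untreated group stayed on that diet (samples 13, 14 and 15), and the treated group received it with an experimental BACE1 inhibitor, RO5508887, mixed in (samples 17, 33 and 35). The sources used here do not give the dose, the length of treatment, the sex or the animals per sample. Samples 33 and 35 shared the same table, value for value over 45320 genes, and were counted as 1 library, treated 33/35, which leaves 3 untreated and 2 treated libraries. The labels do not say whether each sample is a different mouse. The p-values below therefore speak only of sample-to-sample spread, which may be technical.

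Imprinted genes lie in clusters in which a differentially methylated control region sets which parental copy is active. In the cluster that holds H19 and Igf2, the maternal copy makes H19 and the paternal copy makes Igf2, from enhancers that both share. Dlk1 and Meg3 form a similar pair, with Dlk1 made from the paternal and Meg3 from the maternal copy. Many of these genes are high in the fetus and fall after birth, while H19 stays high in skeletal muscle and Mest is known to rise in fat that is expanding. The tables give a total per gene, so parental copies cannot be told apart in them.

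By the annotation on GRCm38, 8 of the 10 genes code for protein and 2 are long non-coding RNAs. They lie on 5 chromosomes, and chromosome 7 holds 5 of the 10. H19 (142575529 to 142578143, minus strand) lies 72622 bases from Igf2 (142650766 to 142666816, minus strand), and Cdkn1c (143458339 to 143461050, minus strand) follows on the same chromosome. Peg3 (6703892 to 6730431, minus strand) and Ndn (62346569 to 62350262, plus strand) are also on chromosome 7. On chromosome 12, Dlk1 (109452823 to 109463336, plus strand) lies 77664 bases from Meg3 (109541001 to 109571726, plus strand). Mest is on chromosome 6 (30723547 to 30748465, plus strand), Plagl1 on chromosome 10 (13060504 to 13131694, plus strand) and Grb10 on chromosome 11 (11930508 to 12038683, minus strand).

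H19, Igf2 and Mest each contain a microRNA gene, and their mature sequences are shown because the tables measure the host transcript separately from the small product. The sequences are from RefSeq on GRCm38.p6, 5′ to 3′, with the seed (bases 2 to 8) in capitals. The hairpin of miR-675 lies within an exon of H19, 996 bases from the start of the gene, whereas those of miR-483 and miR-335 are outside the exons of Igf2 and Mest.
miR-675-5p (H19): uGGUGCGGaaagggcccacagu
miR-675-3p (H19): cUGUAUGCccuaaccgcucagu
miR-483-5p (Igf2): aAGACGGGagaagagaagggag
miR-483-3p (Igf2): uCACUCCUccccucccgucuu
miR-335-5p (Mest): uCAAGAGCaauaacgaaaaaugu
miR-335-3p (Mest): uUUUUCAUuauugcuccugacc
Together with those inside Meg3, 9 mature microRNAs lay within the members and had 9 different seeds. Mir675, Mir483 and Mir335 were listed at 0 in all 5 libraries. A listed 0 does not show absence here, since the libraries were not described as small RNA libraries.

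Promoter sequences were found in the RefSeq table (GRCm38.p6) for 8 of the 10 members, with 15 windows of 300 bases from 250 bases before to 50 bases after a start. H19 and Cdkn1c had no entry. The windows of Mest, Peg3 and Ndn are shown because Mest and Ndn had the widest log2 range after H19, and Peg3 was the member closest to Mest. Windows were searched on both strands for TGACGTCA, the cAMP response element, and GCATGCGC, the core of the NRF1 site, and matches are in capitals.
Mest chr6:30737800-30738099 (plus strand): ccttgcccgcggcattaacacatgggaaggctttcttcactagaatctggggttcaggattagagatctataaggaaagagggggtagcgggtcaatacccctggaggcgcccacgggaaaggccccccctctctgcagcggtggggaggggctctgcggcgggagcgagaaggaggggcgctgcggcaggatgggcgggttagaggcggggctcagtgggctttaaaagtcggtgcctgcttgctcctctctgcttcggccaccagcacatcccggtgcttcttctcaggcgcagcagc
Peg3 chr7:6730370-6730669 (minus strand): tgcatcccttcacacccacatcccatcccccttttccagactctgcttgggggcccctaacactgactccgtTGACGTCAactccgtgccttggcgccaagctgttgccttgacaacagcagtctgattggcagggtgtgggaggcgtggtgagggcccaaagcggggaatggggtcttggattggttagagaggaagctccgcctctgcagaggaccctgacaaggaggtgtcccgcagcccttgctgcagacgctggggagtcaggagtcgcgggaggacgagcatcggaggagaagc
Ndn chr7:62348027-62348326 (plus strand): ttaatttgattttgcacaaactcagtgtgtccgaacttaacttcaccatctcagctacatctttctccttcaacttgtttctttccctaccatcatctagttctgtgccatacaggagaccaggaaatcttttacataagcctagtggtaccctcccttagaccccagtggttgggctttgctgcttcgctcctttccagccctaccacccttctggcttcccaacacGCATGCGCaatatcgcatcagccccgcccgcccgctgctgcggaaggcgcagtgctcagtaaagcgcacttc
TGACGTCA occurred once each in the window of Peg3 and in a window of Meg3, and in 1.79% of all 32851 promoter windows. GCATGCGC occurred in the window of Ndn and in 2.71% of all windows. The Mest window held neither. It had 17 CpG dinucleotides, the Peg3 window 13 and the Ndn window 11, against a median of 7 over all windows. These counts lay between the quartiles of all windows, 3 and 20. The upstream Grb10 window had 45. Another window of Grb10 had 9, and another of Mest had 8. These matches describe letters only.

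The libraries differed widely in skeletal muscle transcripts. Ckm, the muscle creatine kinase, was at 2.25 (13), 2733 (14) and 1.46 (15) FPKM without the drug, and at 1262 (17) and 531 (33/35) FPKM with it. The 32 muscle markers found held 9.03% of all non-mitochondrial FPKM in untreated 14. That share was 3.60% in treated 17, 1.54% in treated 33/35, 0.0363% in untreated 13 and 0.0360% in untreated 15. Tnnt3, a troponin, and Atp2a1, a calcium pump, reached 4125 and 3553 FPKM in untreated 14, where untreated 13 had 5.95 and 5.62 FPKM. The brown fat markers Cox8b, a cytochrome oxidase subunit, and Ucp1, the uncoupling protein, were present in every library, with 942 to 1874 and 227 to 1912 FPKM, both lowest in untreated 14. Of 16 brown adipocyte markers, 13 were lowest in untreated 14, against 43.9% of all tested genes. Of 12 general fat markers, 10 were lowest there and 1 was highest. Among the 10 were Fabp4, a lipid carrier, with 1509 FPKM and Pnpla2, a lipase, with 367 FPKM. The most abundant endothelial and macrophage markers varied less. The endothelial Cdh5 was at 40.9 to 56.0 FPKM and Pecam1 at 41.3 to 45.3 FPKM. The macrophage Lyz2 was at 64.5 to 97.2 FPKM and Cd68 at 8.32 to 13.7 FPKM. Within the endothelial list Cldn5 and Vwf ranged wider. Cldn5 ran from 16.3 (untreated 15) to 78.1 FPKM (treated 33/35), and Vwf from 3.35 (untreated 15) to 11.1 FPKM (untreated 14). The Schwann cell and neuronal list held S100b, at 22.1 FPKM in untreated 14 and 132 to 187 FPKM elsewhere, and Mbp, at 12.1 to 20.8 FPKM. In whole tissue, fewer cells of a type and less RNA per cell cannot be told apart. The depth of the libraries relative to untreated 13, read from the steps between low values, was 0.81 to 1.014, and the read totals were unknown.

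**Figure D1:**
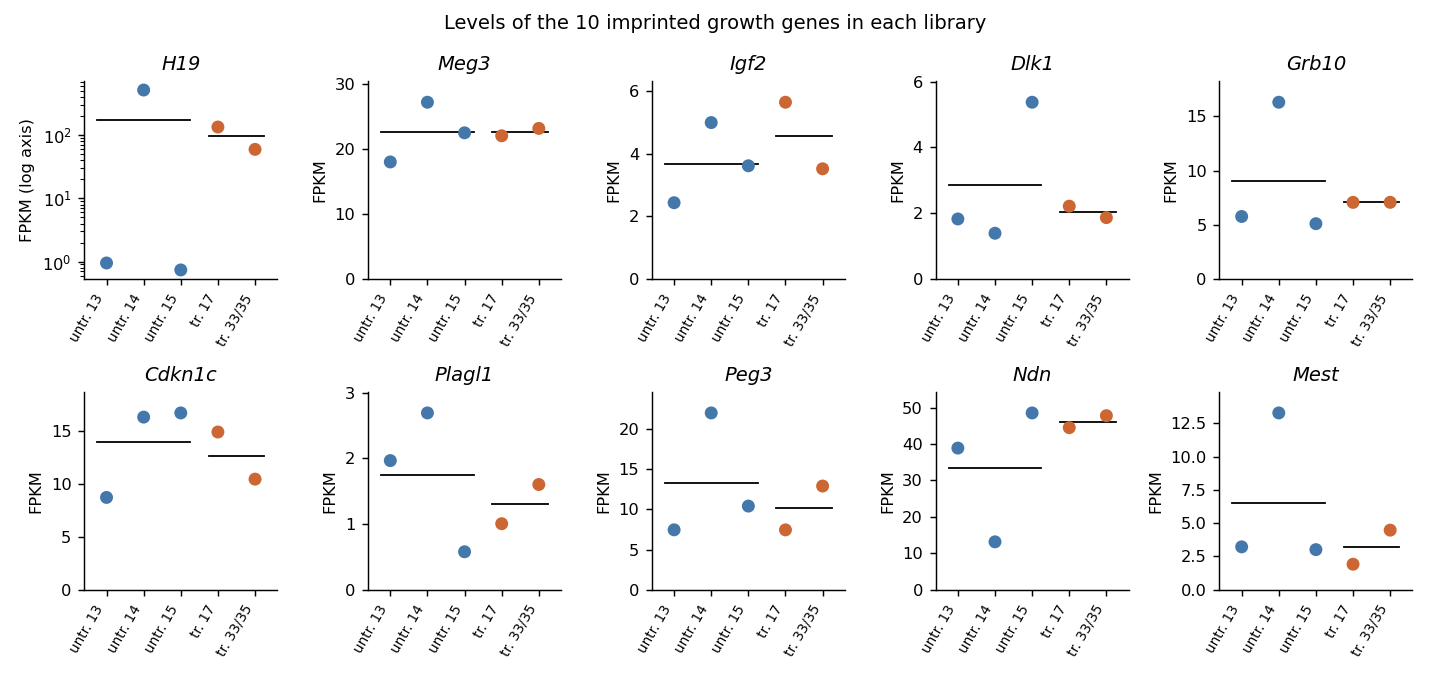
FPKM of each member in the 5 libraries, with untreated libraries in blue, treated libraries in orange and black lines at the group means. The axis of H19 is logarithmic and the others start at 0. H19, Grb10, Peg3 and Mest stand highest in untreated 14, where Ndn is lowest.

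H19, a maternally expressed RNA that restrains growth, was the member with by far the widest spread. It was at 0.948 (13), 523 (14) and 0.735 (15) FPKM without the drug, and at 135 (17) and 59.9 (33/35) FPKM with it. The highest library was 711 times the lowest. Both treated values were below untreated 14 and above untreated 13 and 15, so the groups overlapped. The libraries had the same order for H19 as for Ckm, which was true of only 1 of the 10 members and of 7.58% of all 13527 genes tested. H19 did not keep a fixed ratio to Ckm. It came to 42.1% and 50.2% of the FPKM of Ckm in untreated 13 and 15, to 19.1% in untreated 14, and to 10.7% and 11.3% in treated 17 and 33/35. The ratio was thus highest where both transcripts were low.

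The tested genes closest to H19 over the 5 libraries were Myoz2, Smpx and Hrc. Likeness was the root mean square difference of log2(FPKM + 0.5) after centring each gene on its own mean, and it was 0.14, 0.14 and 0.16 for these genes, against a range of 8.73 for H19 itself. Myoz2 was at 0.156 (13), 310 (14) and 0.0914 (15) FPKM without the drug. In untreated 13 and 15 Smpx was at 0.281 and 0.191 FPKM, and Hrc at 0.253 and 0.185 FPKM. All 3 genes were thus under the added 0.5 FPKM in those libraries. The addition narrows differences among such low values, so the likeness depends in part on it. Smpx measured 79.1 and 34.1 FPKM in treated 17 and 33/35, and Hrc 93.4 and 34.6 FPKM. Regulators of the muscle lineage stood in the same libraries. Myf6, a muscle transcription factor, was at 53.6 FPKM in untreated 14, at 14.4 (17) and 4.36 (33/35) FPKM with the drug and at most 0.043 FPKM in untreated 13 and 15. Myog was at 30.8 FPKM in untreated 14 and listed at 0 in untreated 13 and 15. Over the 9 satellite cell and myogenic markers found, the sum came to 101 FPKM in untreated 14, 20.7 FPKM in treated 17 and 8.22 FPKM in treated 33/35, and stayed under 0.5 FPKM in untreated 13 and 15. The part of muscle transcripts in the level of H19 was not tested.

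**Figure D2:**
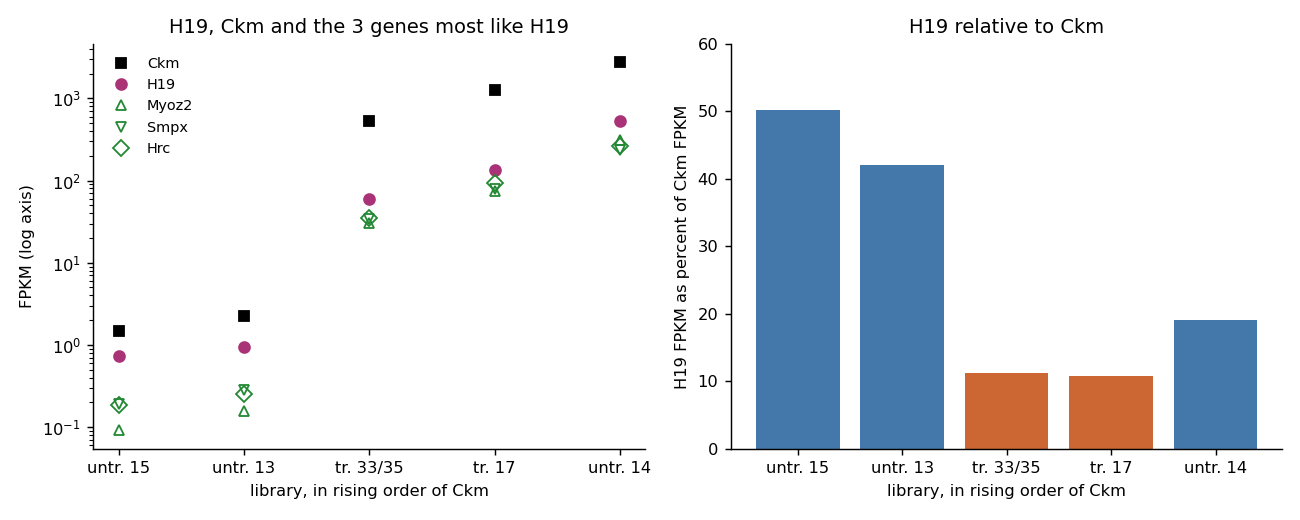
Left, FPKM on a logarithmic axis of H19, Ckm and the 3 genes closest to H19, with the libraries in rising order of Ckm. Right, H19 as a percent of Ckm in the same libraries (untreated blue, treated orange), from 10.7% in treated 17 to 50.2% in untreated 15.

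Meg3, the other long non-coding RNA, was the most even member. It was at 18.0 (13), 27.2 (14) and 22.5 (15) FPKM without the drug, and at 22.03 (17) and 23.2 (33/35) FPKM with it. Its highest value, in untreated 14, was 1.51 times its lowest, and both treated values lay within the untreated range. Rian, a non-coding RNA of the same cluster, measured 18.0, 25.4, 21.6, 19.8 and 18.8 FPKM in the same order of libraries. It was next to lowest in treated 33/35, where Meg3 was next to highest. Mirg, also of that cluster, measured 1.04, 1.34, 1.77, 0.804 and 1.51 FPKM, highest in untreated 15 and lowest in treated 17. Rian and Mirg were picked after their values were seen. Gm26906, on the opposite strand within Meg3, measured 1.35 to 1.94 FPKM. Whether the counting used strand was not given.

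The ligands were low. Igf2, the fetal insulin-like growth factor, was at 2.44 (13), 5.004 (14) and 3.62 (15) FPKM without the drug, and at 5.66 (17) and 3.53 (33/35) FPKM with it. Its highest value was in treated 17 and its lowest in untreated 13, a 2.32-fold range against 711-fold for H19, its neighbour on the chromosome. In untreated 13 and 15 Igf2 was above H19, and in the 3 libraries high in muscle transcripts it was below. The antisense gene Igf2os did not exceed 0.0433 FPKM. Dlk1, a transmembrane relative of the Notch ligands that holds back fat cell formation, was at 1.82 (13), 1.39 (14) and 5.37 (15) FPKM without the drug, and at 2.21 (17) and 1.86 (33/35) FPKM with it. Untreated 15 alone was high, and the other 4 libraries lay between 1.39 and 2.21 FPKM. Dlk1 was thus lowest in untreated 14, the library with the most muscle transcripts. Of 11 tested Notch receptors, ligands and targets 0 passed in either direction, with a median log2 fold change of 0.0014. The most abundant were Hes1, a target, at 10.3 to 20.1 FPKM and Notch3, a receptor, at 7.65 to 11.3 FPKM.

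Grb10, an adaptor that dampens signalling of the insulin and IGF receptors, measured 5.77, 16.3 and 5.10 FPKM in untreated 13, 14 and 15 and 7.07 FPKM in both treated libraries. Untreated 14 was 3.002 times the mean of untreated 13 and 15, and the treated values stood between them. The treated libraries differed by 2.26 times in H19, but by less than 1% in Grb10, with a ratio of 0.999.

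In the wider IGF and insulin receptor axis, 16 of 25 genes were tested and 0 passed in either direction, with 12 positive and 4 negative log2 fold changes and a median of 0.056. The most abundant were Igfbp7 (67.7 to 103 FPKM), Grb14, a relative of Grb10 (56.8 to 84.7 FPKM), Igfbp5, an IGF-binding protein (29.6 to 110 FPKM), and the protease Htra1 (26.6 to 42.8 FPKM). Of the 16 tested genes 2, Igfbp5 and Igfbp6, another IGF-binding protein (6.48 to 45.2 FPKM), had the order of Ckm, against 7.58% of all tested genes. Igf2r, the receptor that clears Igf2 and is itself imprinted, was at 13.9 (13), 21.8 (14) and 13.9 (15) FPKM without the drug, and at 14.9 (17) and 18.2 (33/35) FPKM with it. Insr, the insulin receptor, was the only tested gene of the axis whose groups did not overlap, with 17.9, 17.8 and 17.6 FPKM untreated and 16.6 and 17.5 FPKM treated (log2 fold change -0.058, limma adjusted p = 1). Such separation was seen, with higher drug values, in 5.5% of all tested genes and, with lower ones, in 3.18%.

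The growth-limiting members did not share an order. Cdkn1c, an inhibitor of cyclin-dependent kinases, was at 8.73 (13), 16.3 (14) and 16.7 (15) FPKM without the drug, and at 14.9 (17) and 10.5 (33/35) FPKM with it. Its low libraries were untreated 13 and treated 33/35, one of each group. Of 5 tested relatives 0 passed in either direction, with a median log2 fold change of -0.069. Cdkn2c measured 28.5 to 98.1 FPKM and was lowest in untreated 14, and Cdkn1a, which responds to p53, measured 12.2 to 44.1 FPKM and was lowest in treated 17.

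Plagl1, a zinc finger transcription factor that acts on other imprinted genes, was at 1.96 (13), 2.69 (14) and 0.577 (15) FPKM without the drug, and at 1.00 (17) and 1.60 (33/35) FPKM with it. It was the lowest member by its mean over all libraries, 1.57 FPKM, and both treated values lay within the untreated range.

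Ndn, the protein necdin, which slows growth of neurons and fat cell precursors, was at 38.9 (13), 13.1 (14) and 48.5 (15) FPKM without the drug, and at 44.5 (17) and 47.8 (33/35) FPKM with it. Only untreated 14 was low, at 0.300 times the mean of untreated 13 and 15, and the other 4 libraries lay between 38.9 and 48.5 FPKM. The tested genes closest to it were Kifc3, Cenpo and Tob2, with root mean square differences of 0.065, 0.070 and 0.081 on the log2 scale over the 5 libraries.

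Peg3, a large zinc finger protein made from the paternal copy, was at 7.45 (13), 22.02 (14) and 10.4 (15) FPKM without the drug, and at 7.45 (17) and 12.9 (33/35) FPKM with it. Mest, a paternally expressed protein of the hydrolase type, was at 3.22 (13), 13.3 (14) and 3.01 (15) FPKM without the drug, and at 1.91 (17) and 4.48 (33/35) FPKM with it. Both were highest in untreated 14 and lowest in treated 17. This holds for 2 of the 10 members and for 2.69% of all tested genes. For Peg3 it rests on 7.447 FPKM in treated 17 against 7.453 FPKM in untreated 13. In muscle transcripts treated 17 was next to untreated 14, and their part in the levels of Mest and Peg3 was not tested. Untreated 14 was 6.95 times treated 17 in Mest and 2.96 times in Peg3.

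**Figure D3:**
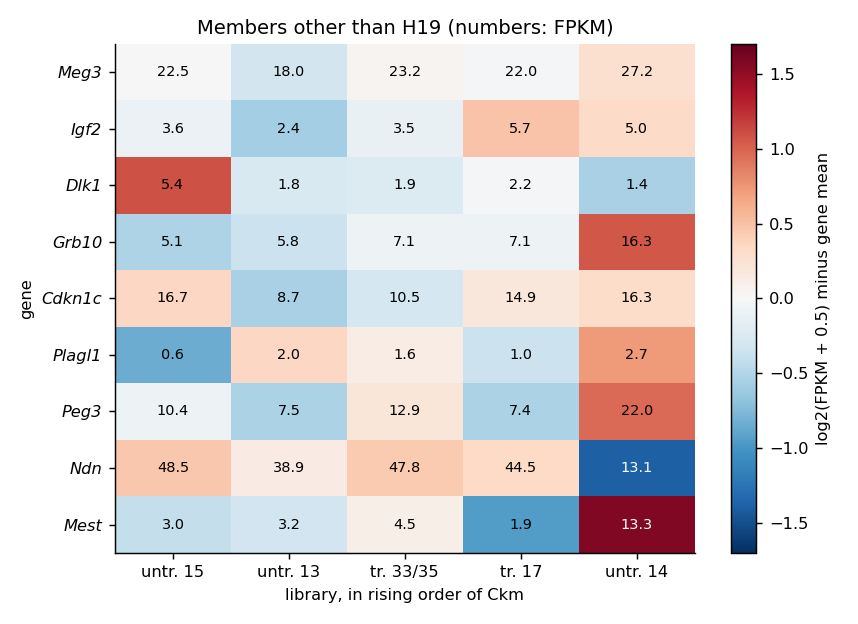
The 9 members other than H19, with libraries in rising order of Ckm from left to right. Colour gives log2(FPKM + 0.5) minus the mean of the gene, and the numbers are FPKM. Grb10, Peg3 and Mest are red in untreated 14 at the right, and Ndn is blue there.

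Together, 6 of the 10 members were highest in untreated 14, against 33.5% of all tested genes, and 2, Dlk1 and Ndn, were lowest in it, against 43.9%. Treated 17 held the lowest value of 2 members, Mest and Peg3, against 8.58%. Peg3 counts here only by 7.447 FPKM against 7.453 FPKM in untreated 13. By mean FPKM over the 5 libraries the order was H19 (144), Ndn (38.6), Meg3 (22.6), Cdkn1c (13.4), Peg3 (12.0), Grb10 (8.27), Mest (5.18), Igf2 (4.05), Dlk1 (2.53) and Plagl1 (1.57). The ranges of neighbours in this order overlapped except for Meg3 and Cdkn1c, where each Meg3 value was above each Cdkn1c value. H19 leads only through the libraries high in muscle transcripts, and in untreated 13 and 15 it was the lowest or the next to lowest member.

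Mest is used as a sign of fat expansion, so it was set beside other genes known to go with fat mass, 8 of them found. Lep, the fat-derived hormone leptin, was at 120 (13), 75.4 (14) and 77.0 (15) FPKM without the drug, and at 144 (17) and 100.4 (33/35) FPKM with it. Lep was highest in treated 17 and lowest in untreated 14, where Mest was lowest and highest. Sfrp5, a secreted Wnt antagonist, was at 2.81 (13), 12.2 (14) and 0.639 (15) FPKM without the drug, and at 3.67 (17) and 2.88 (33/35) FPKM with it. It shared the high value in untreated 14 with Mest, but its order over the libraries was that of Ckm. Cav1, the caveolar coat protein, was at 699 (13), 351 (14) and 572 (15) FPKM without the drug, and at 569 (17) and 583 (33/35) FPKM with it, with its lowest value in untreated 14. Cavin1, another caveolar protein, stayed between 144 and 168 FPKM. Of the 6 tested genes 0 passed in either direction, with a median log2 fold change of 0.15. Of these 6, 4 were lowest in untreated 14, where Mest was highest, against 43.9% of all tested genes. Sfrp5 was highest there, as were the 2 genes under the filter on low values. Nkd1, a Wnt pathway inhibitor, was at 0.975 (13), 1.63 (14) and 0.343 (15) FPKM without the drug, and at 0.867 (17) and 0.733 (33/35) FPKM with it. Bmp3, a secreted growth factor, was at 0.724 (13), 1.30 (14) and 0.229 (15) FPKM without the drug, and at 0.718 (17) and 0.885 (33/35) FPKM with it. The genes closest to Mest were Ccl9, C1qtnf6 and Wfdc21, at root mean square differences of 0.30, 0.30 and 0.32 on the log2 scale.

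**Figure D4:**
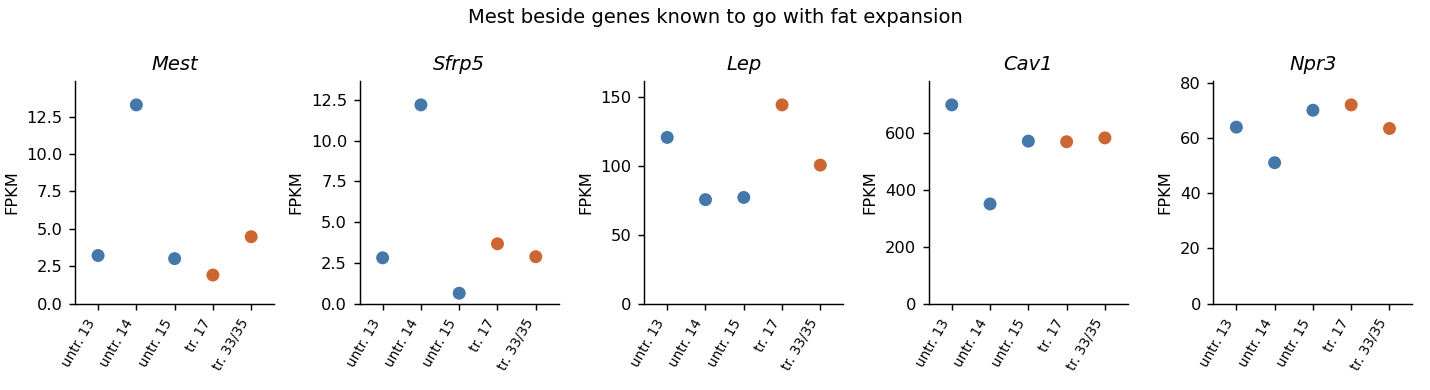
FPKM of Mest and 4 genes of the fat expansion list in the 5 libraries, untreated in blue and treated in orange, on axes that start at 0. Mest and Sfrp5 are highest in untreated 14, where Lep, Cav1 and Npr3 are lowest.

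Relative to Mest, the members differed in how far their ratio moved. Peg3 stayed between 1.66 and 3.90 times Mest in the 5 libraries, and Grb10 between 1.23 and 3.70 times. Ndn ran from 0.988 times Mest in untreated 14 to 23.3 times in treated 17. Fibroblast and progenitor markers were followed beside Mest, since several members are known in precursor cells. The sum of the 14 markers was at 1145 (13), 1272 (14) and 535 (15) FPKM without the drug, and at 897 (17) and 1346 (33/35) FPKM with it, and Gsn (247 to 650 FPKM) and Col3a1, a collagen (111 to 357 FPKM), were the most abundant. All 14 were detected in each library, and their part in the levels of Mest and Peg3 was not tested.

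Treated against untreated asks whether the BACE1 inhibitor goes with a different level of these genes in brown fat on the diet. Of the 10 members, 0 passed the test (limma on log2(FPKM + 0.5), Benjamini-Hochberg adjusted p under 0.05 over 13527 genes), against 0.0444% of all genes tested. At an unadjusted p under 0.05 the count was also 0. The groups overlapped in all 10 members. Of all tested genes, 5.5% had groups without overlap and higher drug values, and 3.18% lower ones, so a count of 0 is near these shares. In 7 members both treated values lay within the untreated range, a count for which no share over all genes was taken. The exceptions were Igf2, with treated 17 above all untreated libraries, and Mest and Peg3, with treated 17 below them, for Peg3 by less than 0.01 FPKM. On the log2 scale 4 members had higher and 6 had lower means with the drug, where 64.3% of all tested genes were higher. Their median log2 fold change was -0.12, beside 0.061 over all tested genes.

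The log2 fold change was 3.21 for H19 (SE 2.98, limma adjusted p = 1), although its mean FPKM was lower with the drug. Untreated libraries averaged 175 ± 301 FPKM (SD, n = 3) and treated ones 97.7 ± 53.4 FPKM (SD, n = 2). Mest averaged 6.51 ± 5.88 FPKM (SD, n = 3) untreated and 3.19 ± 1.81 FPKM (SD, n = 2) treated, or -0.70 on the log2 scale (SE 0.74, limma adjusted p = 1). Ndn was measured at 33.5 ± 18.3 and 46.1 ± 2.32 FPKM, with a log2 fold change of 0.65 (SE 0.60). For the other 7 members the log2 fold changes ran from -0.28 for Peg3 (SE 0.52) to 0.30 for Igf2 (SE 0.35). In Meg3, the most even member, it was 0.021 (SE 0.22), from group means of 22.6 ± 4.595 FPKM (SD, n = 3) and 22.6 ± 0.802 FPKM (SD, n = 2).

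Untreated 14 set several of these values. Without it the log2 fold change of H19 was 6.08 (SE 0.41, limma adjusted p = 0.0198, range over all 15 alternatives 0.00669 to 1), and 1.18% of all genes passed. In that fit all 31 tested muscle markers were called higher, so treatment and muscle transcripts cannot be told apart there. There the treated values of H19 and Grb10 lay above both untreated values, as they did for 24.5% of all genes, while 21.1% lay below. Other left-out libraries separated the groups in other members. Without untreated 13 Cdkn1c was lower with the drug (5.26% of all genes lower, 12.0% higher). Without untreated 15 Dlk1 and Ndn were higher (9.8% of all genes) and Plagl1 lower (8.37%). Without treated 33/35 Igf2 was higher (9.26%) and Mest and Peg3 lower (10.3%), and without treated 17 no member separated (23.0% higher and 8.97% lower). None of these members passed the test in those fits. Without untreated 14, Grb10 was at 0.35 on the log2 scale (SE 0.12, limma adjusted p = 0.376), against -0.15 (SE 0.53) with all libraries. Mest moved to -0.061 and Ndn to 0.085 there.

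When the muscle markers' mean log2 level was added as a covariate, H19 fell by 0.52 on the log2 scale (SE 0.10, limma adjusted p = 0.0409), the opposite direction. In the same fit Grb10 had -0.79 (SE 0.14, limma adjusted p = 0.0338, range 0.0338 to 1) and Ndn 1.38 (SE 0.14, limma adjusted p = 0.0155, range 0.0155 to 1). Mest was at -1.48 there (SE 0.47, limma adjusted p = 0.102, range 0.102 to 1). That fit left 2 residual degrees of freedom and called 13.6% of all genes, so 3 of 10 members stood beside a high background. With the summed FPKM of the markers instead, H19 was at 3.60 (SE 0.26, limma adjusted p = 0.00669), all 31 muscle markers were called higher and 2.07% of all genes passed.

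**Figure D5:**
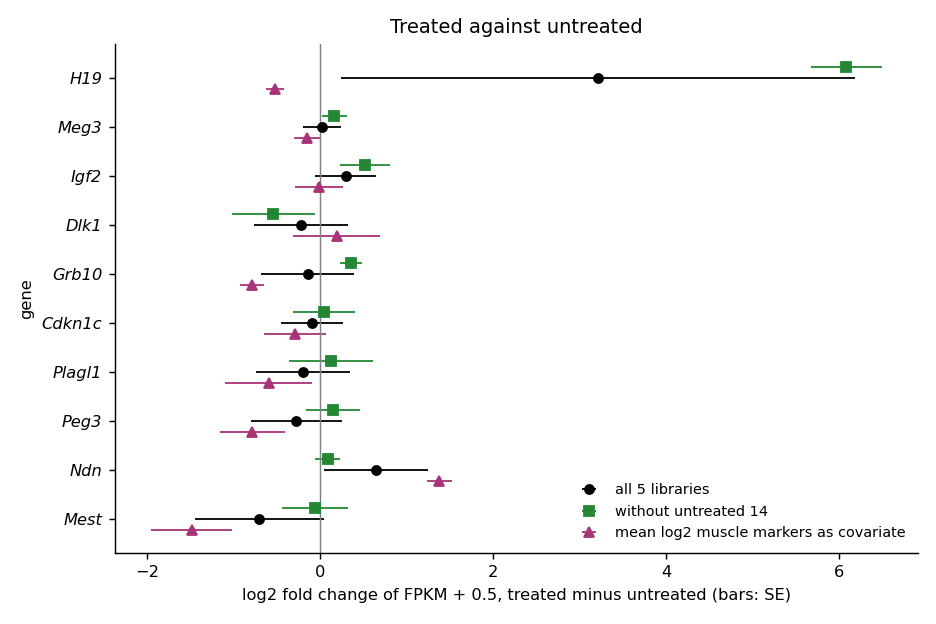
Log2 fold change of each member, treated minus untreated, with its SE, from all 5 libraries (black circles), without untreated 14 (green squares) and with the mean log2 muscle markers as a covariate (purple triangles). H19 moves from 3.21 to 6.08 and -0.52 between these fits, while Meg3 stays near 0.

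Beyond the 10 members, 53 other imprinted genes were found and 33 were tested. Of these 0 passed in either direction, with 19 positive and 14 negative log2 fold changes and a median of 0.040, beside 0.061 over all genes. The most abundant were Gnas, which encodes a stimulatory G protein subunit, with 532 to 1234 FPKM, and Cd81, a tetraspanin, with 103 to 179 FPKM, both lowest in untreated 14. Dcn, the matrix proteoglycan decorin, was at 124 (13), 198 (14) and 55.9 (15) FPKM without the drug, and at 147 (17) and 144 (33/35) FPKM with it, the order of Ckm. Nnat, neuronatin, was at 73.6 (13), 250.4 (14) and 30.5 (15) FPKM without the drug, and at 85.4 (17) and 97.8 (33/35) FPKM with it. Groups did not overlap in Zrsr1, higher with the drug (log2 fold change 0.22), and in Commd1, lower (-0.13), both with a limma adjusted p of 1. Such separation held for 5.5% of all tested genes with higher drug values and for 3.18% with lower ones. In untreated 14, 13 of the 33 had their highest and 14 their lowest value, near the shares of 33.5% and 43.9% for all genes. Ins2 and Phlda2, neighbours of H19 and Cdkn1c, were listed at 0 in every library. Over all 13 lists set beside the members, 0 of 165 tested genes passed the test, and 0 had an unadjusted p under 0.05.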

How the data were processed

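Values are FPKM per Ensembl gene, as the authors deposited them in 1 table per sample, per the file headers. RNA was Trizol-extracted from whole tissue, per the labels' protocols. The submitters' processing notes name CASAVA 1.7 and GRCm38. Aligner, quantifier and annotation are not given in the sources used here. Symbols and coordinates came from GENCODE M21 (44395 of 45320 identifiers). FPKM are not counts, so no count test, counting interval or detection floor was used.

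Genes averaging 1 FPKM or more were compared on log2(FPKM + 0.5) with limma 3.58.1 in R 4.3.3 (empirical Bayes with a variance trend, two-sided, Benjamini-Hochberg over 13527 genes), without covariates. Fold changes on this scale understate the change of low genes. Figures and descriptions used Python 3.11.15 and pandas 2.3.3.

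Members and lists were chosen with earlier results of these data known. All members and Ckm were named, as were the 2 most abundant tested genes of each list (4 for imprinted and IGF genes), and the 3 genes closest to the 3 members of widest range. Lep, Sfrp5, Igf2r, Insr, Igfbp6, Rian, Mirg, Zrsr1, Commd1, Nkd1, Bmp3, Npr3, Asb4, Zim1, Copg2, Snrpn, Snurf, Cldn5, Vwf, Igf2os, Gm26906, Ins2 and Phlda2 were named after their values were seen. Acta1, Cdh15, Tubb3, Zim3, Zfp264, Hymai and Peg13 were not analysed here. Ptrf, also listed, is an older symbol of Cavin1, which was analysed.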

Additional observations from a re-analysis of the deposited data

How the results depend on the processing

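The 10 log2 fold changes were recomputed under 15 alternatives (pseudocount, filter, scaling, variance trend, 2 muscle covariates, each library left out). The count of members past the threshold was 3 with the mean log2 muscle covariate and 1 with the summed FPKM covariate, and 0 to 1 with a library left out. It was 0 under each of the other 8. The count of members without overlap of the groups was 0 to 3 with a library left out. Mest stayed negative and Ndn positive under all 15 alternatives, but their size moved, from -1.48 to -0.061 for Mest and from 0.085 to 1.38 for Ndn. With the mean log2 muscle covariate H19 turned to -0.52, Igf2 to -0.012, Meg3 to -0.16 and Dlk1 to 0.19, and quantile normalization turned Meg3 to -0.036. Leaving out each library gave -0.011 to 0.60 for Igf2, -0.13 to 0.16 for Meg3, -0.54 to 0.27 for Dlk1, -0.65 to 0.15 for Peg3, -0.66 to 0.13 for Plagl1, -0.39 to 0.15 for Cdkn1c and -0.44 to 0.35 for Grb10. For H19 it gave 1.72 to 6.08, for Mest -1.23 (without treated 33/35) to -0.061 (without untreated 14), and for Ndn 0.085 to 1.01. Where 1 treated library was left out, the other was assumed to vary like the untreated group. The cause of these turns was not tested. No paired analysis was possible because the groups share no sample number. Low members such as Plagl1 and Dlk1 are limited by an unknown read depth.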

Other observations

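Among the imprinted genes outside the members, some of low level stood highest in untreated 14 (picked after their values were seen). Of the 33 tested, 13 were highest there, near the share of 33.5% of all tested genes. Asb4 was at 0.195 (13), 2.91 (14) and 0.236 (15) FPKM without the drug, and at 1.25 (17) and 1.04 (33/35) FPKM with it. Zim1, a neighbour of Peg3, was at 0.613 (13), 2.96 (14) and 0.763 (15) FPKM without the drug, and at 1.08 (17) and 1.22 (33/35) FPKM with it. Copg2, which overlaps the end of Mest on the opposite strand, measured 19.7, 13.1 and 16.0 FPKM untreated and 15.3 and 19.2 FPKM treated. It was lowest in untreated 14, where Mest was highest, as were 43.9% of all tested genes. Among the other libraries both Copg2 and Mest were lowest in treated 17. Snrpn, of the cluster that holds Ndn, shares its transcript with Snurf, so its total is uncertain. Snrpn measured 25.6 FPKM in untreated 14, where Ndn was lowest, against 13.7 to 16.9 FPKM in the other 4 libraries. Snurf did not share this peak. It was at 21.8 (13), 24.3 (14) and 26.7 (15) FPKM without the drug, and at 32.6 (17) and 17.0 (33/35) FPKM with it. How fragments were divided between these 2 entries was not given, so a high level of the shared transcript particular to untreated 14 is not shown.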
